A study of Drosophila melanogaster with 2 samples.

Results

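The genes examined encode the male-specific lethal (MSL) complex of Drosophila melanogaster, 7 of the 18164 annotated genes on arms X, 2L, 2R, 3L, 3R and 4. They were chosen by name as the complex's RNAs lncRNA:roX1 and lncRNA:roX2 (below roX1 and roX2) and its proteins msl-1, msl-2, msl-3, mle and mof. For each gene every peak summit inside it or within 5 kb of it was taken from 4 deposited peak lists. The experiment was chromatin immunoprecipitation followed by sequencing (ChIP-seq) from whole adult males of the transgenic strain CG7045-GFP, whose transgene makes the HMG-box protein tHMG1 (CG7045) with GFP fused to its C-terminus. Per the labels the precipitation used an antibody against GFP, although the antibody field names CG7045. There were 2 biological replicates, numbered 1 and 3, which form 1 group of unknown age, so no contrast between conditions could be made. The promoter and insertion site of the transgene, and whether the flies also made untagged tHMG1, are not stated in the labels. No untagged or input sample was analysed here.

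Dosage compensation raises transcription of the single X chromosome of males to the level reached by both X chromosomes of females. The MSL complex does this in Drosophila: the roX RNAs, transcribed from the X itself, are assembled with the MSL proteins by the helicase MLE, and the acetyltransferase MOF acetylates histone H4 on X-linked genes. The complex is thought to enter the X at GA-rich sequences, among them sites within both roX genes, and MSL2 is kept from females by Sex-lethal. The lists record where tagged tHMG1 was enriched in or beside the genes of this complex, not where the complex itself was bound. In chromatin from whole animals, weak enrichment in many cells and strong enrichment in few cannot be told apart.

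Of the 7 genes, only roX1 had a peak at its own transcription start in the list the authors filtered by irreproducible discovery rate (IDR). The signal, the authors' own enrichment value for a peak, was 107.9 there. roX2, mof and msl-2 had IDR summits within 5 kb, but each of those lay closer to the start of another gene. The starts of msl-1 and msl-3 carried peaks of 75.2 and 63.5 in the pooled list, below the lowest IDR signal of 90.3, and mle had no summit within 500 bp of its starts in any list. A gene was counted as having a promoter peak if a summit lay within 500 bp of any of its annotated transcription start sites.

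Against all annotated genes these counts stand as follows. An IDR promoter peak was found at 1 of the 7 genes, against 18.0% of all genes, 11.9% of genes on X and 21.5% of protein-coding genes. An IDR summit inside the gene or within 5 kb was found for 4 of the 7, against 45.6% of all genes and 35.7% of those on X. With 7 genes, neither count can be told apart from that background.

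The unthresholded lists hold 30000 peaks each and include background. In the pooled list 5 of the 7 genes had a promoter summit, against 49.8% of all genes, and all 7 had a summit within 5 kb, against 84.4%. With pooled peaks limited to a q value of at most 0.05, the promoter count was 3 of 7, against 36.2%. The genes were roX1, msl-1 and msl-3. Replicate 1 had promoter summits at 5 of the 7 genes (background 49.3%) and replicate 3 at 4 (48.2%), and each had summits within 5 kb of all 7 (83.3% and 87.6%). The replicates shared promoter peaks at roX1, msl-1 and msl-3 only. Replicate 1 also had them at roX2 and msl-2, and replicate 3 at mof.

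At the IDR peaks of the 7 genes the IDR and pooled lists give the same signal and the same rank. The IDR and pooled values are therefore not separate measurements there. The lists of the replicates are on different scales. Read depth is unknown, so no counting error can be attached to a peak. The median signal was 145.9 over the 4574 IDR peaks, 34.9 over the pooled list, 20.4 in replicate 1 and 18.5 in replicate 3. At the 4558 IDR peaks matched in both replicates the signal of replicate 1 was a median of 1.42 times that of replicate 3, with 10% of the ratios below 0.832 and 10% above 2.24. All summits at the 7 genes lay at the midpoints of their peaks, which were 424 to 444 bp long at the median of each list, so a distance shorter than a peak does not tell starts within that peak apart.

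**Figure D1:**
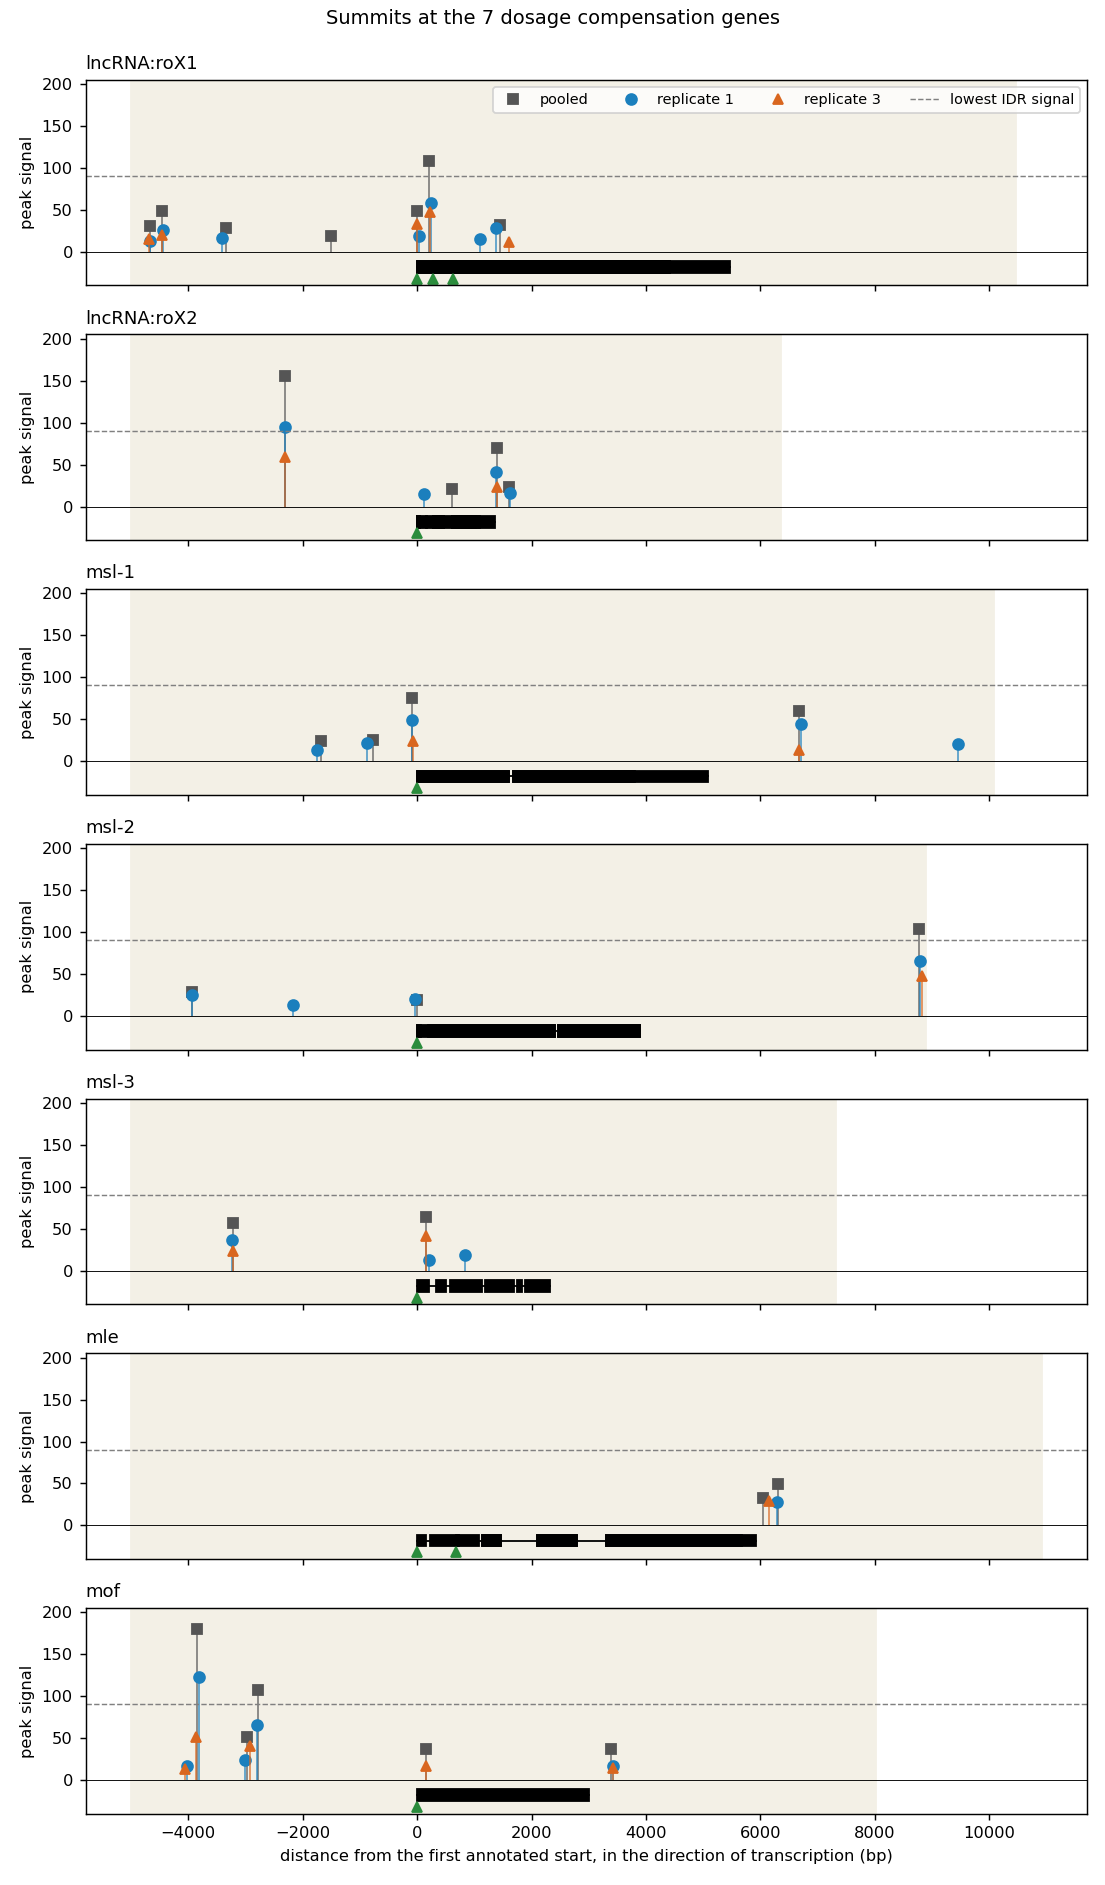
Peak signal (vertical axis, the authors' enrichment value) of every summit at the 7 genes against its distance in bp from the first annotated start, in the direction of transcription. Squares are pooled summits, circles replicate 1 and triangles replicate 3, black boxes are exons, green triangles annotated starts, shading marks the gene with 5 kb on each side, and the dashed line is the lowest signal of the IDR list, 90.3, on the pooled scale. The only pooled peak above that line inside one of the 7 genes is that of roX1, at 107.9.

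roX1 (FBgn0019661) is a long non-coding RNA gene at X 3857230 to 3862697 of build dm6, on the minus strand, with 3 annotated starts. Its IDR peak, at X 3862271 to 3862714, had its summit in exon 1, 204 bp downstream of the first start and 68 bp upstream of the next one. The signal was 58.5 in replicate 1 and 47.6 in replicate 3, and the peak ranked 3930 and 3805 in the replicates' own lists. Both replicates therefore placed it at a similar rank, and their summits lay 33 and 24 bp downstream of the pooled one in the direction of transcription. The ratio of the replicates was 1.23, below the median of IDR peaks. In the IDR list the peak ranked 3535 of 4574, among the weaker ones. The bases around this summit are shown because it is the only IDR promoter peak of the complex, chrX:3862393-3862593, minus strand, from the RefSeq Release 6 genome, which is dm6:
roX1 promoter summit: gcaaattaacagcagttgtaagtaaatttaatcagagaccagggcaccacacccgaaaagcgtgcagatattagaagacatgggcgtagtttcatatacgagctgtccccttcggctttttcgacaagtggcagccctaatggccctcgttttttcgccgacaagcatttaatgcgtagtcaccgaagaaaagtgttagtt
None of the 3 motifs searched in windows of 201 bp, on both strands, was found in it. These were GAGAGA and GAGAGAGA, of which the first is contained in the second, as GA repeats, and AACAAT as an SRY-type HMG-box site. Whether tHMG1 itself prefers that site was not tested. Over all IDR windows the shares that hold them were 12.1%, 3.13% and 24.9%. The window had a GC content of 45.3%, against a mean of 37.4%.

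A second peak of the roX1 promoter was seen in both replicates below the IDR signals. Its summit lay 3 bp downstream of the first start, with a pooled signal of 49.2, and was the one pooled peak inside roX1 where replicate 3 (33.6) exceeded replicate 1 (18.8). Its window held AACAAT at 2 places. Further upstream, 4 pooled summits fell within yin, the next gene on the same strand, whose end lies 268 bp from the first start of roX1. They had signals of 19.2 to 48.5. The strongest of them, 4453 bp from roX1 and 433 bp upstream of a start of yin, gave 25.7 in replicate 1 and 19.8 in replicate 3, and the weakest overlapped no peak of either replicate.

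Inside roX1 the pooled list also held a weaker peak over GA-rich sequence, 1449 bp downstream of the first start in exon 1. Its signal was 31.9 at a −log10 q of 0.88, so it did not reach a q of at most 0.05 in that list. The −log10 q was 2.48 in replicate 1 and 0.19 in replicate 3. Replicate 1 gave 28.4 there and replicate 3 gave 11.6, near that list's lowest value of 11.0. The ratio of 2.45 was higher than at 92.95% of the pooled peaks matched in both replicates. The gene contains GAGAGA at 2 positions on either strand, X 3861336 to 3861341 and X 3861350 to 3861355, and both were covered by this peak. The summit of replicate 1 lay 13 and 27 bp from their middles, and that of replicate 3 244 and 258 bp away. No GAGAGAGA was found in roX1. The stretch is shown with both motifs in capitals, chrX:3861316-3861361, minus strand, RefSeq Release 6:
roX1 GA motifs: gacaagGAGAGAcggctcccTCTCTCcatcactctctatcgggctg
These motif positions are matches of letters in the reference and were listed after the peaks had been seen. The share of pooled windows that hold GAGAGA was 10.9%, and 1 of the 27 pooled windows at the 7 genes held it, the one around this roX1 summit.

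roX2 (FBgn0019660), the other roX RNA gene, spans X 11579065 to 11580432 on the plus strand. It had no IDR or pooled summit at its start. Replicate 1 alone listed a peak there, 128 bp downstream with a signal of 14.9, at a −log10 q of 0.62. The strongest peak near the gene was an IDR peak at X 11576532 to 11576975, 2311 bp upstream, in the gap between the divergent genes e(y)2 and CG11695. Its signal was 155.4, with 95.2 in replicate 1 and 58.5 in replicate 3. It stood above the IDR median, and the summits of the replicates lay within 3 bp of each other. It is closer to other starts than to that of roX2: the start of CG11695 was 129 bp away, and in replicate 3 the nearest start was that of e(y)2, a transcription and mRNA export factor, at 131 bp. Its sequence is shown because it carries the highest signal at either roX gene, chrX:11576654-11576854, plus strand, RefSeq Release 6:
roX2 upstream summit: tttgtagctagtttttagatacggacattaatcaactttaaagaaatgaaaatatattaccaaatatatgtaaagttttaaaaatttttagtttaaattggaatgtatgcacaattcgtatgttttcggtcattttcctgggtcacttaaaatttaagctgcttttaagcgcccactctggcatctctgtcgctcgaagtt
This window had a GC content of 30.8% and held none of the 3 motifs.

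At the other end of roX2, both replicates showed a peak just past the annotated 3′ end. The pooled summit lay 28 bp beyond it and 312 bp upstream of the start of nod, which encodes a kinesin-like protein of meiosis. The signal was 69.9 in the pooled list, 40.7 in replicate 1 and 23.8 in replicate 3. It missed the lowest IDR signal, ranking 6462 of 30000. A further summit 100 bp upstream of nod had 23.0 in the pooled list and 16.4 in replicate 1 and overlapped the same peak of replicate 3. A pooled summit in an exon of roX2, 607 bp downstream of the start, had a signal of 20.8 and no counterpart in either replicate.

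The roX2 gene contains GAGAGAGA at 2 positions, X 11580213 to 11580220 and X 11580267 to 11580274, 1151 and 1205 bp downstream of its start and in an exon. The peak at the 3′ end covered 1 of the 2. Its summits lay 190 bp from the nearer motif in the pooled list, 170 bp in replicate 1 and 184 bp in replicate 3, so the motifs lay at the flank of the peak and not at its summit. The window around that summit held neither GA motif. Both motifs are in capitals in the stretch that joins them, chrX:11580193-11580294, plus strand, RefSeq Release 6:
roX2 GA motifs: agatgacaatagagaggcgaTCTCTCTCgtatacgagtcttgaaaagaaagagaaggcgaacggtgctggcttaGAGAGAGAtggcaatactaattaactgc
Across all pooled windows 2.72% held GAGAGAGA, and none of the 27 windows at the 7 genes did.

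**Figure D2:**
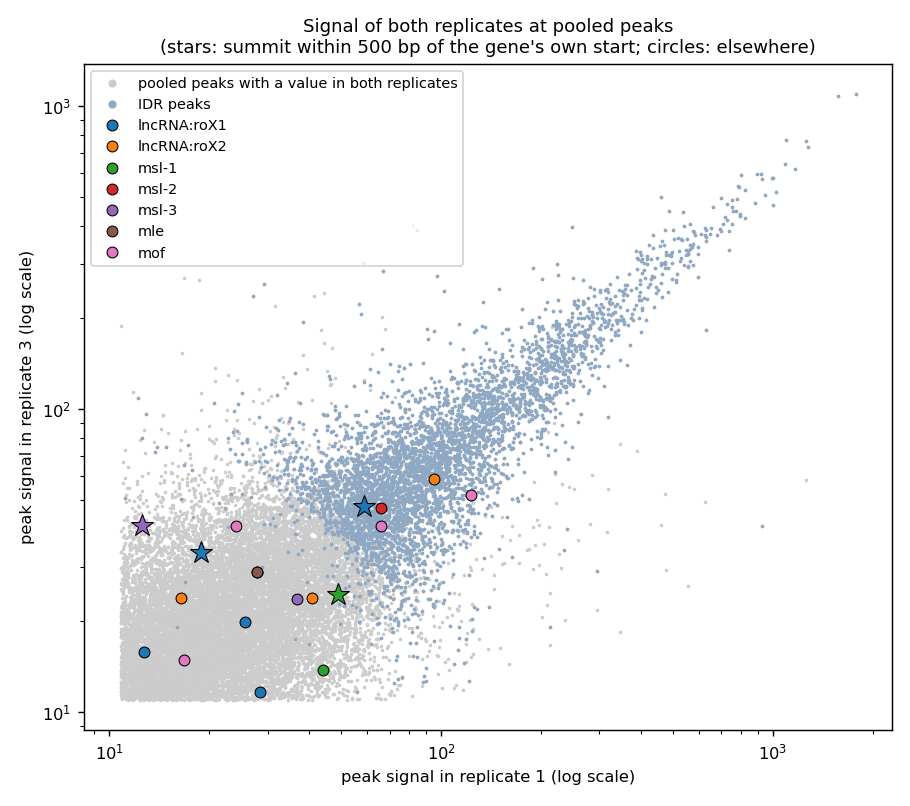
Signal of replicate 3 (vertical axis) against replicate 1 (horizontal axis), both on log scales, at every pooled peak matched in both replicates (grey) and at IDR peaks (blue-grey), with the peaks at the 7 genes in colour. Stars are summits within 500 bp of the gene's own start and circles are other summits; the star of msl-3 (12.6 in replicate 1, 40.9 in replicate 3) lies far towards replicate 3, and the star of roX1 (58.5 and 47.6) is the only star among the IDR peaks.

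msl-1 (FBgn0005617) encodes the scaffold protein on which the other MSL proteins assemble, and lies at 2L 18683720 to 18688800 on the minus strand with a single annotated start. In the pooled list and in replicate 1 it had the strongest promoter peak of the 5 protein genes. In replicate 3 that of msl-3 was stronger, at 40.9. The pooled summit lay 95 bp upstream of the start with a signal of 75.2, at rank 5862 of 30000. Its −log10 q of 4.08 was the highest the pooled list contains, a value that 6018 of its peaks share. Replicate 1 gave 48.9 and replicate 3 gave 24.4, at summits 85 and 69 bp upstream of the start. The ratio of 2.01 lies between the 10th and 90th percentiles over the 20624 pooled peaks with both values (0.613 to 2.20). The bases upstream of the start within that window are shown because this is the strongest pooled promoter summit of a protein member, chr2L:18688801-18688995, minus strand, RefSeq Release 6:
msl-1 upstream summit: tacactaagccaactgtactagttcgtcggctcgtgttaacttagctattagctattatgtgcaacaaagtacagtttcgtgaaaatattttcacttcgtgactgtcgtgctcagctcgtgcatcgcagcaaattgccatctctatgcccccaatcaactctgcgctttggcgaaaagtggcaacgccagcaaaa
No motif of the 3 was found in the 201 bp around the summit.

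Other peaks near msl-1 belonged by distance to its neighbours. A summit 56 bp upstream of tos, 1589 bp beyond the 3′ end of msl-1, had 59.9 in the pooled list, with 43.9 in replicate 1 and 13.8 in replicate 3. That ratio of 3.19 exceeded 97.3% of matched pooled peaks. Summits in CG10336, the divergent gene upstream, gave 25.6 and 24.2 in the pooled list and were matched in replicate 1 alone. The nearest IDR summit was just outside the window, 5235 bp away with a signal of 94.4 and nearest to CG10383.

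msl-2 (FBgn0005616) encodes the male-limited subunit, a RING-finger protein that binds DNA, at 2L 3462218 to 3466112 on the minus strand. Its own start carried a weak peak that replicate 3 did not list. The pooled signal was 19.6, close to the list's lowest value of 18.6, and replicate 1 gave 20.6, near that list's median of 20.4. The pooled summit lay 2 bp upstream of the msl-2 start, but the divergent gene ND-PDSW, a respiratory complex I subunit, starts 45 bp from it, so a peak of this width cannot be given to either gene. The IDR peak of msl-2 lay at the far edge of the window, 4879 bp beyond the 3′ end and 37 bp downstream of the start of Sec5, an exocyst subunit. It had a signal of 103.2, with 66.0 in replicate 1 and 47.2 in replicate 3. The same peak of replicate 3 also overlapped a stronger IDR peak of 186.1, whose summit lay 208 bp away and just outside the window, 5087 bp beyond the 3′ end, with 137.3 in replicate 1. The window around the summit of 103.2 held AACAAT. The remaining pooled summit, 36 bp upstream of Pif1, had 28.7 and was matched in replicate 1 alone, at 24.9.

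msl-3 (FBgn0002775) encodes the chromodomain subunit that helps the complex spread to active genes, at 3L 7123213 to 7125533 on the minus strand. Its promoter peak differed more between the replicates than any other at these genes that was matched in both. The summit lay in the coding part of exon 1, 161 bp downstream of the start, with 63.5 in the pooled list, 12.6 in replicate 1 and 40.9 in replicate 3. The peak ranked 25712 of 30000 in replicate 1 and 4822 in replicate 3. The ratio of 0.307 was so low at only 0.912% of pooled peaks matched in both replicates, so the pooled value rests mostly on replicate 3. The coding start and the beginning of the intron in that window are shown because only 2 pooled summits at the 7 genes lay in a coding exon of the gene itself, this one and one in mof, chr3L:7125272-7125422, minus strand, RefSeq Release 6:
msl-3 exon 1 summit: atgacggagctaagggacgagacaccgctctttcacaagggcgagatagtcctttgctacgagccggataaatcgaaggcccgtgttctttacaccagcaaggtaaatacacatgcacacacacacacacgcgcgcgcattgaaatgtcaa
The other pooled summit near msl-3, 145 bp upstream of the acyl-CoA binding protein gene Acbp6, had 56.8, with 36.8 in replicate 1 and 23.5 in replicate 3. Replicate 1 alone listed a peak of 18.8 in exon 3. The nearest IDR summit, 120.7, lay 6015 bp away by Acbp2.

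mle (FBgn0002774) encodes the RNA helicase that loads the roX RNAs, at 2R 5974857 to 5980778 on the minus strand with 2 annotated starts. Its strongest peak was the weakest of the 7 genes in the pooled list and in replicate 1, whereas in replicate 3 it exceeded that of msl-1 (24.4). No list had a summit inside it or within 5 kb upstream of it. Both pooled summits lay past its 3′ end, 389 bp away with a signal of 49.8 and 127 bp away with 32.6, and the first was 83 bp upstream of the start of BubR1, a spindle checkpoint kinase. Each replicate had 1 peak there, of 27.9 in replicate 1 and 29.0 in replicate 3, and both pooled peaks overlapped the same pair. The nearest IDR summit was 36884 bp away.

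mof (FBgn0014340) encodes the histone H4 acetyltransferase, which also works in the non-specific lethal (NSL) complex of both sexes, at X 5873840 to 5876853 on the minus strand. At its own start the pooled signal was 37.1, from a summit 163 bp downstream in the coding part of exon 1. Replicate 3 gave 17.5 there and replicate 1 listed no peak. Its neighbours carried much stronger peaks. The strongest peak near any of the 7 genes, an IDR peak of 180.7, lay 3839 bp upstream of mof in an intron of CG16721, 127 bp upstream of one of that gene's starts. Replicate 1 gave 123.3 and replicate 3 gave 51.8, a ratio higher than at 92.2% of matched pooled peaks. The other IDR peak, 107.6, lay 2782 bp upstream of mof and 17 bp from a start of Usp30, a deubiquitinase gene on the same strand. Replicate 1 gave 66.1 and replicate 3 gave 41.1, but the summit of replicate 3 lay 139 bp from the pooled one and was shared with a pooled summit of 51.4 that stood 34 bp upstream of CG16721. Past the 3′ end of mof a summit 111 bp upstream of GAA1 had 37.3, with 16.7 and 14.8 in replicates 1 and 3.

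Most summits near the 7 genes were thus at starts of neighbouring genes. Of the 27 pooled summits, 21 lay within 500 bp of an annotated start, but only 6 of them within 500 bp of a start of the gene itself. In all, 18 of the 27 were nearest to the start of another gene. Among the 5 IDR summits, 5 lay within 500 bp of a start and 4 were nearest to another gene. Over all peaks of the lists, 57.91% of IDR summits and 36.28% of pooled summits lay within 500 bp of a start. The windows around the 7 genes were chosen around genes, so they hold more starts than the same length of genome, and the shares are given as a description. Their density was 5.151 IDR summits per 100 kb over 97.07 kb, against 3.416 genome-wide, and 27.82 pooled summits against 22.41.

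**Figure D3:**
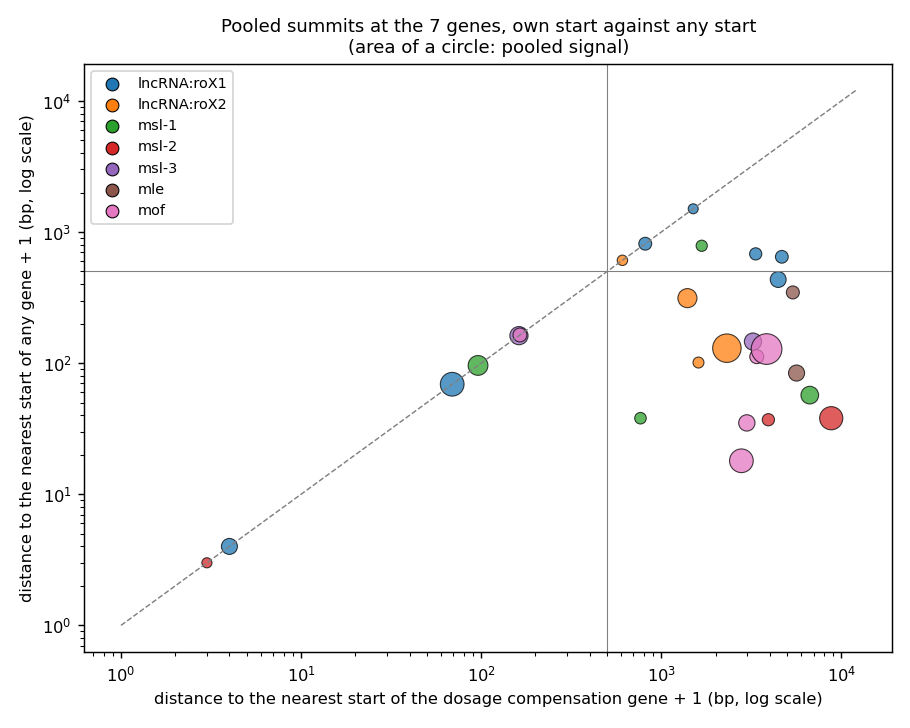
Distance of each of the 27 pooled summits to the nearest start of the MSL gene (horizontal axis) against its distance to the nearest start of any gene (vertical axis), both in bp plus 1 on log scales, with the area of a circle proportional to pooled signal. Points on the dashed diagonal are nearest to the MSL gene's own start, points below it are nearest to a neighbour, and the thin lines mark 500 bp; 6 summits lie within 500 bp of their own gene's start, the strongest being roX1 at 107.9.

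The replicates matched the peaks of the 7 genes to different degrees. Of the 27 pooled summits, 24 overlapped a peak of replicate 1, 20 one of replicate 3, 19 both and 2 neither. All pooled peaks together were matched in both replicates at 68.7%. In each of the 7 genes the strongest pooled peak was matched in both. The windows held 29 summits of replicate 1 and 18 of replicate 3. In replicate 1, 4 of the 29 overlapped no pooled peak: the one at the roX2 start (14.9), one each in CG31751 near msl-1 (20.6) and in Pif1 near msl-2 (12.8), and the one in exon 3 of msl-3 (18.8). Every summit of replicate 3 overlapped a pooled peak. By promoter signal the order was roX1, msl-1, msl-2, roX2 and msl-3 in replicate 1 (58.5, 48.9, 20.6, 14.9 and 12.6) and roX1, msl-3, msl-1 and mof in replicate 3 (47.6, 40.9, 24.4 and 17.5). roX1 came first in both. With 1 value per replicate and ratios that spread as above, the order of the genes below it was not the same in the replicates.

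Motif shares and base composition around the summits were compared with those of the whole lists, without a test. AACAAT occurred in 7 of the 27 pooled windows, against 21.2% of all pooled windows. It also occurred in 2 of the 5 IDR windows, those by mof and msl-2, against 24.9% of all IDR windows. The mean GC content was 40.1% over the 27 pooled windows, against 41.8% over all pooled windows, and 37.2% over the 5 IDR windows, against 37.4%.

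Among 7367 genes whose strongest pooled promoter peak was matched in both replicates, the promoter signals most like those of roX1 were at CG2017 on 3R and at CG8281 and pbl on 3L. Likeness was the Euclidean distance between log2 signals in the pooled list and both replicates. CG2017 had 106.7 in the pooled list, 58.3 in replicate 1 and 47.4 in replicate 3, a distance of 0.018. CG8281 and pbl share one peak, with 109.6, 57.1 and 47.4, at 0.043.

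The wider pathway was described by 37 further genes in 5 lists, all of which matched the annotation. Of them, 15 (40.5%) had an IDR promoter peak, against 21.5% of all protein-coding genes, and 30 (81.1%) had a pooled one, against 55.9%. An IDR summit inside the gene or within 5 kb was found for 24 (64.9%), against 49.2%. Replicate signals below are those of the peak that overlaps the gene's strongest pooled promoter peak. The median pooled promoter signal was 94.0 over those 30 genes and 68.7 over the protein-coding genes with such a peak. It was 63.5 over the 5 MSL genes with one. The pathway genes were longer, with a median of 5124 bp against 2166 bp, and the part of length in these shares was not tested. They were also chosen with earlier results of these data known. The part of that choice in the shares was not tested either, so the shares are given as a description.

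Of 12 genes for cofactors and recruitment, 5 (41.7%) had IDR promoter peaks, against 21.5% of all protein-coding genes. Clamp, the zinc-finger protein that binds GA repeats and tethers the MSL complex, had a summit 455 bp from its start with 110.6 in the pooled list, 52.0 in replicate 1 and 58.5 in replicate 3. JIL-1, a histone H3 kinase enriched on the male X, had 154.4, with 112.8 and 39.5. Sxl and Unr take part in repressing the translation of msl-2 in females. Sxl, the switch gene of sex determination, had 121.0, with 88.6 and 29.0, and Unr, its partner, had 170.6, with 110.5 and 58.6. Su(var)3-7, a heterochromatin protein, had 104.3, with 65.5 and 36.4. Set2, whose H3K36 methylation is bound by MSL3, had 50.9 in the pooled list and Hrb27C had 50.4. Neither had an IDR promoter peak, and the summit at Hrb27C was nearest to the start of x16. Nup153 had no summit at a start in any of the lists.

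Of 8 genes listed for the NSL complex, 3 (37.5%) had IDR promoter peaks, against 21.5% of all protein-coding genes. Chro, a chromodomain protein of interbands, had the strongest of all the genes examined, 1193 in the pooled list, 699 in replicate 1 and 495 in replicate 3, at rank 30. pzg had 201.1 and Rcd5 189.1, but the nearest starts to those summits were those of CG12974, at 5 bp, and CG11593. nsl1, the scaffold of the complex and the counterpart of msl-1, had 83.8 in the pooled list, with 63.1 and 20.6 in replicates 1 and 3. dgt1 had none.

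Of 13 genes of sex determination, 5 (38.5%) had IDR promoter peaks, against 21.5% of all protein-coding genes. The co-repressor gro had 430.3, with 270.1 in replicate 1 and 158.9 in replicate 3. The splicing cofactors vir and fl(2)d had 197.6 and 155.0, the bHLH gene da 151.6, and dsx, the last gene of the somatic pathway, 134.3. All 5 of these are autosomal, whereas Sxl, counted above among the cofactors, is X-linked. Over all genes, 19.2% of those on the autosome arms and 11.9% of those on X had an IDR promoter peak. X-linked snf had 67.5 in the pooled list, with 26.1 in replicate 1 and 42.5 in replicate 3, and no IDR promoter peak. The X-linked elements that report the number of X chromosomes in embryos, sisA, sc, upd1 and run, and the autosomal dpn, had no promoter summit in the pooled list. tra, the female splicing switch, had 31.9 in the pooled list and 24.5 in replicate 1, with no peak in replicate 3.

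Both GA-repeat binding genes had IDR promoter peaks, against 21.5% of all protein-coding genes. Trl, which encodes the GAGA factor, had 458.2, with 264.9 in replicate 1 and 198.8 in replicate 3, and psq had 216.2, with 116.6 and 106.7. The remaining list held Pof and egg, genes for the regulation of chromosome 4 by a separate system, and neither of the 2 had an IDR promoter peak. Their pooled signals were 56.3 and 62.8, and egg had no peak in replicate 3.

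**Figure D4:**
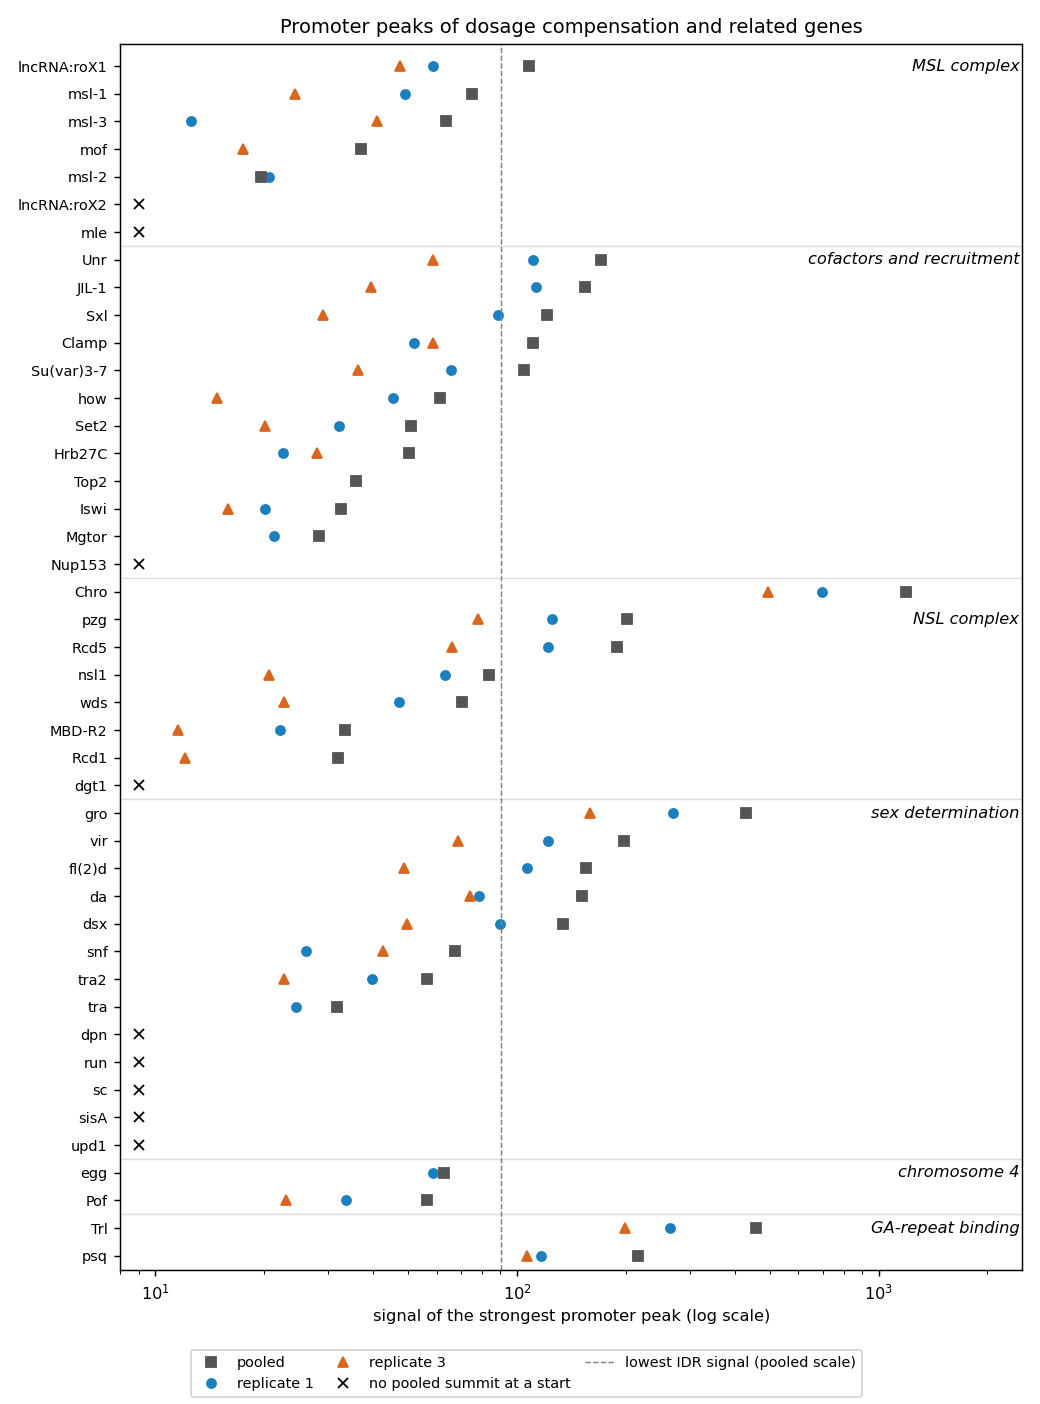
Signal of the strongest pooled promoter peak (squares, log axis) of the MSL complex genes and the 37 pathway genes, with the overlapping peak in replicate 1 (circles) and replicate 3 (triangles). Crosses mark genes with no pooled summit within 500 bp of a start, and the dashed line is the lowest IDR signal, 90.3, on the pooled scale: roX1 is the only MSL gene to the right of it, and Chro, at 1193, lies farthest right.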

How the data were processed

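Coordinates are those of build dm6. Per the labels, chromatin was sonicated and replicates 1 and 3 are biological. The authors deposited 4 peak lists for dm6: 1 per replicate, 1 pooled, and 1 that passed IDR. Each peak's signal and −log10 q value are the authors', as deposited. Aligner, caller, filters and IDR threshold: not given in the sources used here. Depth is unknown. The 4 lists for dm3 were not used.

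Genes and transcription starts came from Ensembl release 115, without transposable elements. A promoter summit lay within 500 bp of any start. Peaks were matched by an overlap of at least 1 bp, and where several overlapped the one with the nearest summit was taken. Motifs were sought within 100 bp of each summit, except where GA motifs inside roX genes were listed. Named by rule were the 7 genes, the gene nearest to each IDR summit and to each gene's strongest pooled summit, pathway genes with an IDR promoter peak, and the 3 genes most like roX1. Other neighbours, and pathway genes with a weaker peak or none, were named after their values were seen. Members and lists were chosen with earlier results of these data known. There is 1 group and no test. Python 3.11.15, numpy 2.4.6, pandas 2.3.3 and matplotlib 3.10.9 were used, and the assignment of summits was tested on simulated data. Alternatives were other windows, the stronger part of the IDR peaks, the pooled list, each replicate alone and other overlap rules.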

Additional observations from a re-analysis of the deposited data

How the results depend on the processing

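Counts of genes depended on the window and the list. Shares in parentheses are those of all genes under the same setting. Genes with an IDR summit inside or within 5 kb numbered 4 (45.6%), and 1 with 2 kb (32.5%), 6 with 10 kb (58.8%), 2 with the IDR peaks above that list's median signal (30.8%) and 7 with all pooled peaks (84.4%) or with those at a q of at most 0.05 (69.8%), a limit chosen after seeing the data. Genes with an IDR promoter peak numbered 1 (18.0%), and 0 above that median (10.5%), 5 with all pooled peaks (49.8%) and 3 at that q (36.2%). Windows of 250 bp (14.3%) or 1000 bp (21.6%), or the outermost start alone (16.1%), left it at 1. IDR peaks at the genes numbered 5, and 1 with 2 kb and 14 with 10 kb. With the strongest peaks of a single replicate, the 4 genes and the 1 promoter stayed at 4 to 4 (45.8% and 44.9%) and 1 to 1 (18.1% and 17.5%), and pathway promoters numbered 13 to 16 against 15. The strongest pooled peak of all 7 genes was matched in both replicates, and of 6 where summits had to lie within 100 bp, mle dropping out. No paired analysis was possible because the 2 replicates form 1 group. Depth is unknown and limits how far weak peaks can be told from background.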
